A study of Mus musculus with 6 samples.

Results

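Pericytes are the mural cells that wrap capillaries and small venules, and here they were the 571 cells of mouse back skin that expressed more Rgs5 than Myh11, out of 50850 cells kept (1.12%). They were taken from 6 single-cell RNA libraries in 3 groups of 2. Sham mice were untreated, IMQ mice had a daily dose of 62.5 mg imiquimod cream (5%) spread over the shaved back for 4 days, and IMQ+SHP099 mice were given SHP099, which locks the phosphatase SHP2 in its closed form, at 10 mg/kg by gavage over the same 4 days as the cream. All were female C57BL/6 mice of 8 to 10 weeks, the skin of several mice went into each library, and the labels name the same psoriasis model for all 6 libraries, the untreated ones included. The groups thus share strain, sex, age and site, but the paper states fewer mice per sample for Sham than for the other groups. No group received SHP099 without the cream, and mice within a library cannot be separated.

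The cells were chosen by their own counts of unique molecular identifiers (UMIs, 1 per captured molecule). A mural cell had Acta2, Tagln, Myl9 and Rgs5 UMIs of at least 20 per 10000 together, at least 2 UMIs of Rgs5 and Myh11, no Ptprc UMI, Krt5 and Krt14 under 10 per 10000, and fewer than 2 UMIs of Pecam1 and Cdh5. Among the 2937 mural cells, 571 had more Rgs5 than Myh11 UMIs, 2337 had more Myh11 (called smooth muscle cells here), and 29 had equal numbers. The pericytes numbered 32 and 134 for Sham, 108 and 164 for IMQ, and 30 and 103 for IMQ+SHP099 (replicates 1 and 2 in each case, as in every pair of values given for a group).

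Pericytes share a basement membrane with the endothelium, which holds them through platelet-derived growth factor acting on Pdgfrb, and they set capillary diameter with actin and myosin as vascular smooth muscle does on larger vessels. Rgs5, a brake on G protein signalling, Notch3, the proteoglycan Cspg4 and the ATP-sensitive potassium channel formed by Kcnj8 and Abcc9 are the usual markers. In inflamed skin the venular wall is where leukocytes leave the blood, and psoriatic plaques are known for wide, looping dermal capillaries.

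The pericytes held 150558 to 2042716 UMIs per library, with a median of 3943 to 10101 UMIs per cell, and both IMQ medians lay above the other 4. Whole libraries held 53913865 to 188283327 UMIs. Sham replicate 1 and IMQ+SHP099 replicate 1 stood apart by their few pericytes. Sham replicate 1 also had the most keratinocyte marker RNA in its pericytes (an unscaled 4689 CPM over 8 genes, where CPM sets the total of a cell class in a library to 1000000 and is called unscaled without TMM factors, against 75.5 to 374 in the others), and fibroblast marker RNA ran from 232 unscaled CPM in that library to 3293 in IMQ replicate 2. Other classes left less: endothelial markers summed to 405 to 737 unscaled CPM (10 of 10 genes detected), Schwann markers to 28.3 to 157 (6 of 8, with Sox10 and Kcna1 at 0), skeletal muscle markers to 45.3 to 106 (6 of 8, with Pax7 and Myf5 at 0) and melanocyte markers to 5.67 to 45.5 (4 of 6, with Tyrp1 and Tyr at 0). The part of this RNA in the differences below was not tested beyond the values given beside them. No pericyte barcode was shared between 2 libraries, and 4 of them occurred among the kept barcodes of another library.

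The markers of the label were present. Summed over the 12 pericyte markers, the pericytes held 21254 to 28910 unscaled CPM, against 474 to 969 in fibroblasts. The choice of cells largely fixed this sum, since Rgs5, Acta2 and Myl9 are among both the markers and the genes of the gate. The other 9 markers, among them Sparcl1, Pdgfrb and Notch3, summed to 5218 to 7207 unscaled CPM in pericytes, 3412 to 6977 in smooth muscle cells and 393 to 565 in fibroblasts. Sparcl1, a secreted matricellular protein, stood at 3677 and 2490 CPM (scaled by TMM, as wherever CPM stands alone below) in Sham, 1964 and 1747 in IMQ and 2534 and 4130 under IMQ+SHP099. Smooth muscle cells held 28261 to 43404 unscaled CPM of the same 12 markers, so the sum separated mural cells from fibroblasts and not pericytes from smooth muscle cells. The 8 smooth muscle markers summed to 3228 to 4082 unscaled CPM in pericytes and 8134 to 15953 in smooth muscle cells.

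The set was graded. Myh11, the smooth muscle myosin heavy chain, was at most 0.1 times Rgs5 in 105 cells, and between 0.5 and 1 times Rgs5 in 202 cells. Kcnj8 went along this axis from 3.70 to 0.162 UMIs per 10000 and Abcc9 from 5.89 to 0.834, Cox4i2, a hypoxia-responsive cytochrome oxidase subunit, from 16.3 to 1.90, and Higd1b, a hypoxia-inducible domain protein used as a pericyte marker, from 7.87 to 2.48. Pdgfrb went from 8.45 to 3.90, while Notch3 was 8.62 at one end and 10.7 at the other. Acta2 ran the other way, from 36.9 to 146 UMIs per 10000, and so did Lmod1, a nucleator of smooth muscle actin filaments, from 0.750 to 4.47. Kcnj8, Abcc9, Cox4i2 and Higd1b were thus highest in the cells with least Myh11, and Acta2 and Lmod1 were highest next to the cut. Other pericyte markers moved less or the other way. Sparcl1 went from 14.9 to 27.7 UMIs per 10000 along the axis, the mitochondrial gene Ndufa4l2 from 13.1 to 10.4 and Vtn from 2.36 to 2.06. Since the axis and the cut come from the same cells, these are descriptions with no test.

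**Figure D1:**
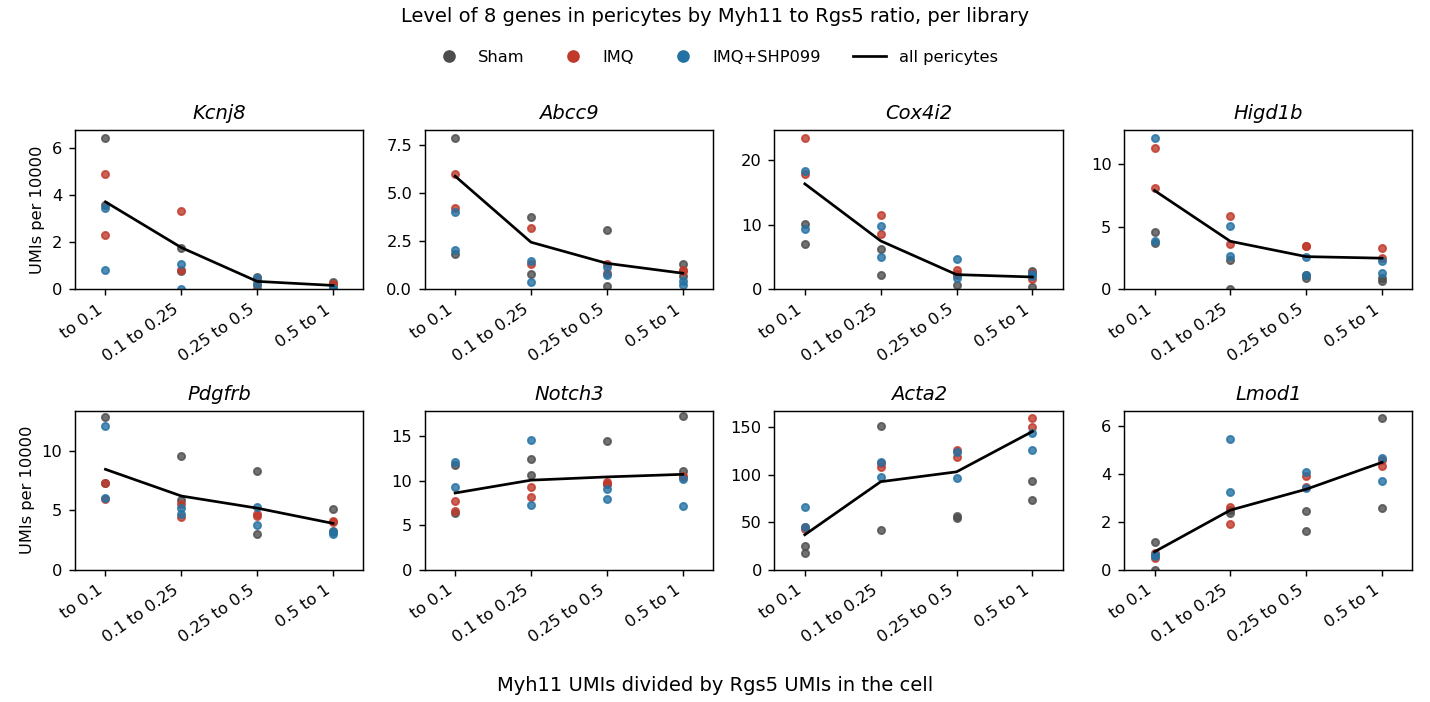
UMIs per 10000 (vertical axis) of 8 genes in pericytes grouped by Myh11 divided by Rgs5 UMIs (horizontal axis), with a point for each library coloured by group and a black line for all pericytes. Kcnj8, Abcc9, Cox4i2 and Higd1b are highest in the cells with least Myh11, and Acta2 and Lmod1 are highest next to the cut.

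Close to the cut, 52 of the 571 cells had at most 2 more Rgs5 than Myh11 UMIs, and 75 had Myh11 at 0.8 times Rgs5 or more. These 75 lay mostly in IMQ replicate 2 (26 cells) and IMQ+SHP099 replicate 2 (23 cells). Cells with over 4 times as many Rgs5 as Myh11 UMIs are called Myh11-low below: they made up 31.3% and 62.7% of the pericytes in Sham, 39.8% and 20.7% in IMQ, and 26.7% and 18.4% under IMQ+SHP099. The share overlapped between Sham and IMQ, with a difference of -16.7 percentage points (exact permutation p = 0.667, two-sided).

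Beyond the markers, 12 genes had the largest smallest ratio of pericytes over smooth muscle cells across the 6 libraries, again with no test because the same counts divide the 2 classes. Tnfrsf21, a death receptor, averaged 119 unscaled CPM in pericytes and 1.49 in smooth muscle cells. Agt, the precursor of angiotensin, averaged 60.0 and 1.17. Others were Nrgn, Cyp4b1, Tspan15, Cd36, Sept4, Ifitm1, Mnd1, Arhgdib and Spry4, all with a lowest log2 ratio between 1.78 and 2.65. On the smooth muscle side stood Bche, Nptx2, Pcp4, Adra2c, the BMP antagonist Grem1 and the tendon transcription factor Scx, and each of these 6 averaged under 5 unscaled CPM in pericytes.

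The pericyte share of skin cells overlapped between Sham and both other groups. It was 0.373% (exact 95% interval 0.255 to 0.526) and 1.63% (1.37 to 1.93) in Sham, 1.41% (1.16 to 1.70) and 1.59% (1.36 to 1.85) in IMQ, and 0.345% (0.233 to 0.493) and 1.40% (1.14 to 1.69) under IMQ+SHP099. Both libraries with a low share were the first replicates of their groups. Sham spanned the whole range of IMQ, and the IMQ+SHP099 libraries lay below the IMQ libraries, by less than the intervals in replicate 2. The mean was 1.00% ± 0.888 (SD, n = 2) in Sham, 1.501% ± 0.131 in IMQ and 0.870% ± 0.742 under IMQ+SHP099. IMQ minus Sham was 0.5001 percentage points (exact permutation p = 1), and IMQ+SHP099 minus IMQ was -0.630 points (exact permutation p = 0.333, the smallest that 2 against 2 libraries can give). The intervals cover counting error only.

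The mural compartment itself was composed differently. Smooth muscle cells made up 0.746% and 1.60% of kept cells in Sham and 6.31% and 8.70% in IMQ, so pericytes were 33.0% and 50.2% of mural cells in Sham and 17.97% and 15.3% in IMQ. Both Sham libraries lay above both IMQ libraries, and the difference was -24.9 percentage points (exact permutation p = 0.333). In IMQ+SHP099 they were 26.5% and 13.1% of mural cells. A fall of a share among dissociated cells can come from fewer pericytes or from more of the other cells, and these cannot be told apart.

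**Figure D2:**
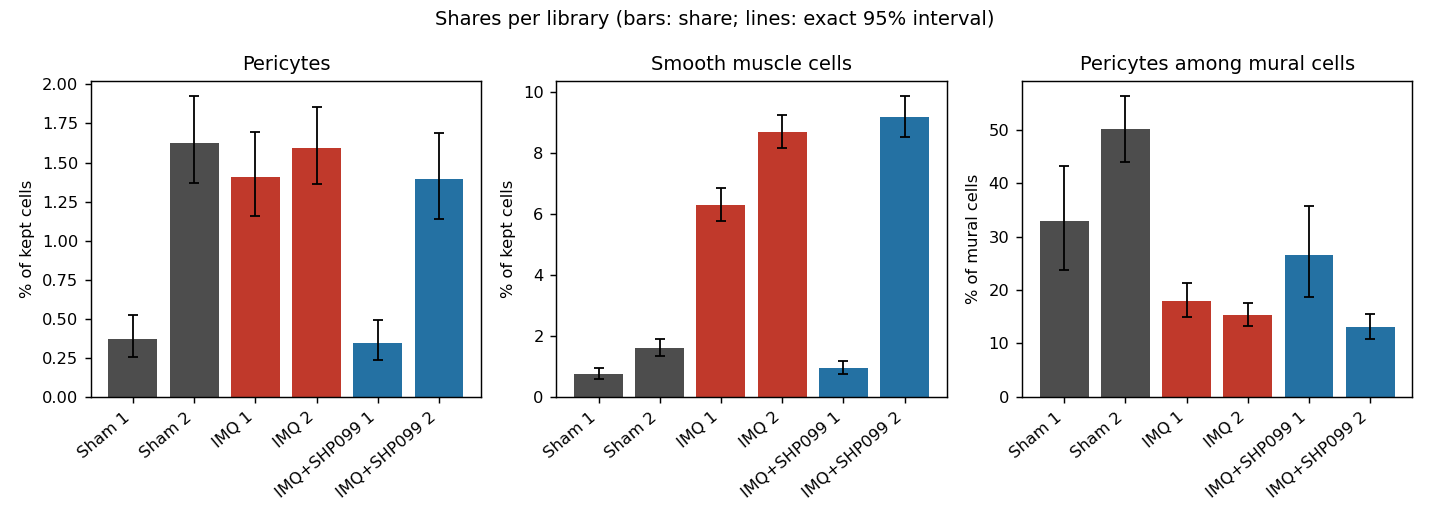
Share per library (vertical axes, percent) of pericytes and smooth muscle cells among kept cells and of pericytes among mural cells, with exact 95% intervals as lines. The pericyte share overlaps between Sham and IMQ, while pericytes are 33.0% and 50.2% of mural cells in Sham and 17.97% and 15.3% in IMQ.

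Setting IMQ against Sham addresses the effect of the cream on pericytes. Across 8581 genes tested on the summed UMIs of all pericytes, none passed an adjusted p under 0.05 in edgeR's quasi-likelihood test (0%, smallest adjusted p = 0.0576), 1213 had an unadjusted p under 0.05, and DESeq2 called 25. Of the tested genes, 6.42% were higher and 7.71% lower at an unadjusted p under 0.05, and 24.3% had both IMQ libraries above both Sham libraries and 22.6% both below. Counts of list members below are read against these shares. The p-values measure only the spread between libraries, which may be technical.

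Restricted to the 198 Myh11-low cells, an alternative chosen after seeing the data, edgeR called 395 of 5399 genes, 173 higher (3.2%) and 222 lower (4.11%). That number was 593 without Sham replicate 1, 25 without Sham replicate 2, 81 without IMQ replicate 1 and 37 without IMQ replicate 2, so it rested on several libraries. Of the 395, 352, 15, 69 and 35 were called in the same direction in these 4 fits. Nfkbiz and Egr1 were among the 15, while Higd1b, Col4a1, Col6a3 and Ltbp1, given below, passed in none of the 4. The Myh11-low cells of Sham replicate 1 were 10 in number with 32127 UMIs. Their median depth was 2641 and 5574.5 UMIs per cell in Sham and 14054 and 10321.5 in IMQ, and the part of depth in these calls was not tested. "Rose" and "fell" are used below only for genes that passed in the Myh11-low cells or in a test of a difference between cell classes.

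Cell cycle genes were higher in the IMQ pericytes. Of 19 members tested, 10 were higher at an unadjusted p under 0.05 and none lower (6.42% and 7.71% of all genes). Both IMQ libraries lay above both Sham libraries for 15 members (24.3% of all genes). The median log2 fold change was 1.42 against -0.02 over all genes. The list also holds Cdkn1a and Cdkn1c, inhibitors of cell cycle kinases, and Cdkn1c was among the 10 higher members. In the Myh11-low cells 10 of 18 rose and none fell. That count was 10 without Sham replicate 1, 0 without Sham replicate 2, 4 without IMQ replicate 1 and 0 without IMQ replicate 2, and without Sham replicate 2 Cdkn1a, the p21 inhibitor of cell cycle kinases, was called lower.

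Cdk1, the kinase that drives entry into mitosis (chromosome 10, 69335146 to 69352938, minus strand, GRCm38), had 0 and 3 UMIs for Sham, 59 and 121 for IMQ, and 0 and 0 under IMQ+SHP099. In CPM this is 0 and 2.83, then 44.7 and 60.1, then 0 and 0. IMQ stood apart from all 4 other libraries, and the ratio of pooled levels of IMQ over Sham was 18.9 (95% counting interval 6.37 to 92.6). Pclaf, a clamp-associated factor of DNA replication, stood at 0 and 4.71 CPM in Sham, 66.7 and 65.5 in IMQ, and 6.08 and 6.42 under IMQ+SHP099. Its log2 fold change was 3.97 ± 0.51 (SE, edgeR adjusted p = 0.0576), and 4.98 in the Myh11-low cells (adjusted p = 0.00015). Top2a, the topoisomerase that untangles chromosomes, was at 0 and 9.42 CPM in Sham, 35.6 and 70.5 in IMQ, and 6.08 and 1.61 under IMQ+SHP099. Stmn1, which destabilises microtubules, went from 14.2 and 50.9 CPM to 113 and 131 with the cream and stood at 24.3 and 16.1 with SHP099. For all 4 genes the 2 IMQ libraries were the highest of the 6. Cdk1, Top2a, Stmn1, Birc5, Ccna2, Hmgb2, Mcm3, Mcm5, Tyms and Rrm2 were the members that rose in the Myh11-low cells, whereas Pcna, the replication clamp, stood at 63.8 and 83.9 CPM in Sham and 139 and 82.4 in IMQ and passed no test.

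The promoters of Cdk1 and Top2a are shown because both genes carry this result and both hold the cell cycle homology region, a short element of genes expressed late in the cycle (TTTGAA, or TTCAAA on the other strand, in capitals). The 250 bases before each start site in RefSeq (build GRCm38.p6) are chr10:69352913-69353162 on the minus strand for Cdk1 and chr11:99024190-99024439 on the minus strand for Top2a, written 5′ to 3′ along the gene.
Cdk1: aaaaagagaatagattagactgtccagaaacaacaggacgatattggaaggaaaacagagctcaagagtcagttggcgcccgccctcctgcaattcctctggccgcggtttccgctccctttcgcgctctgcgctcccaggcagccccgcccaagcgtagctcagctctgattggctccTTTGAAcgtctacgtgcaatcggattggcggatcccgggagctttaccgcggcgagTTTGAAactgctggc
Top2a: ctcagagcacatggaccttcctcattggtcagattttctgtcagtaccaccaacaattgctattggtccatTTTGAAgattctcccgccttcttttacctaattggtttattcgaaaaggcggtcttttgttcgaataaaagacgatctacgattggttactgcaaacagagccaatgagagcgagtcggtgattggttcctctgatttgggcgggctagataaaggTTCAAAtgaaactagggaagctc
The element occurred in 6 of the 16 cell cycle promoters found in the table (37.5%) and in 15.99% of all 32851 promoters, and each promoter printed holds it at 2 places. A match is a description of letters, not of binding.

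The levels came from a minority of cells. Cells with UMIs of at least 6 of 18 cell cycle genes were 0 of 32 and 5 of 134 pericytes in Sham, 13 of 108 and 19 of 164 in IMQ, and 3 of 30 and 1 of 103 under IMQ+SHP099. As shares these are 0% (3 cells of 32 would be 9.38%, and the exact 95% interval reaches 10.9%) and 3.73%, then 12.04% and 11.6%, then 10.0% and 0.971%. Both IMQ libraries were above both Sham and both IMQ+SHP099 libraries, and IMQ+SHP099 overlapped with Sham. The exact 95% interval of IMQ+SHP099 replicate 1 (2.11% to 26.5%) covered both IMQ shares. With every cell thinned to 2000 UMIs, 1 to 6 cells per library left out as shallower and at least 3 of the genes required, the shares were 0% and 6.25%, 11.5% and 7.98%, and 7.14% and 2.94%. The cells concerned were deep: their median was 24669 UMIs in IMQ replicate 1 and 24089 in IMQ replicate 2, against 9044 and 9375 in the other pericytes. No doublet caller was run, and the part of doublets was not tested. Of the 41 such cells 33 were Myh11-low.

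The summed level of the list overlapped between Sham and IMQ once every cell was given the same weight, while the share of such cells at 2000 UMIs, given above, did not. The whole list includes Cdkn1a and Cdkn1c, inhibitors that the 18 genes counted per cell leave out. Summed over it, the pericytes held 751 and 726 unscaled CPM in Sham, 1187 and 1193 in IMQ and 731 and 533 under IMQ+SHP099. In the thinned cells the sum was 1016 and 754, then 942 and 850, then 607 and 662, so Sham and IMQ overlapped. Only 4 members were abundant enough to be tested there (Pcna, Stmn1, Hmgb2 and Cdkn1a). Their median log2 fold change was -0.04 for IMQ against Sham. In thinned Sham replicate 1, Cdkn1a was found in 10 of 31 cells, Pcna and Hmgb2 in 4 each, and Cdk1, Top2a and Stmn1 in 0. The part of the inhibitors in the sum was not tested.

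In both classes set beside them the IMQ libraries lay below the Sham libraries. In smooth muscle cells the share was 1.56% and 3.03% in Sham and 0.207% and 0.446% in IMQ, and in fibroblasts 1.59% and 11.4% in Sham and 1.05% and 1.497% in IMQ.

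**Figure D3:**
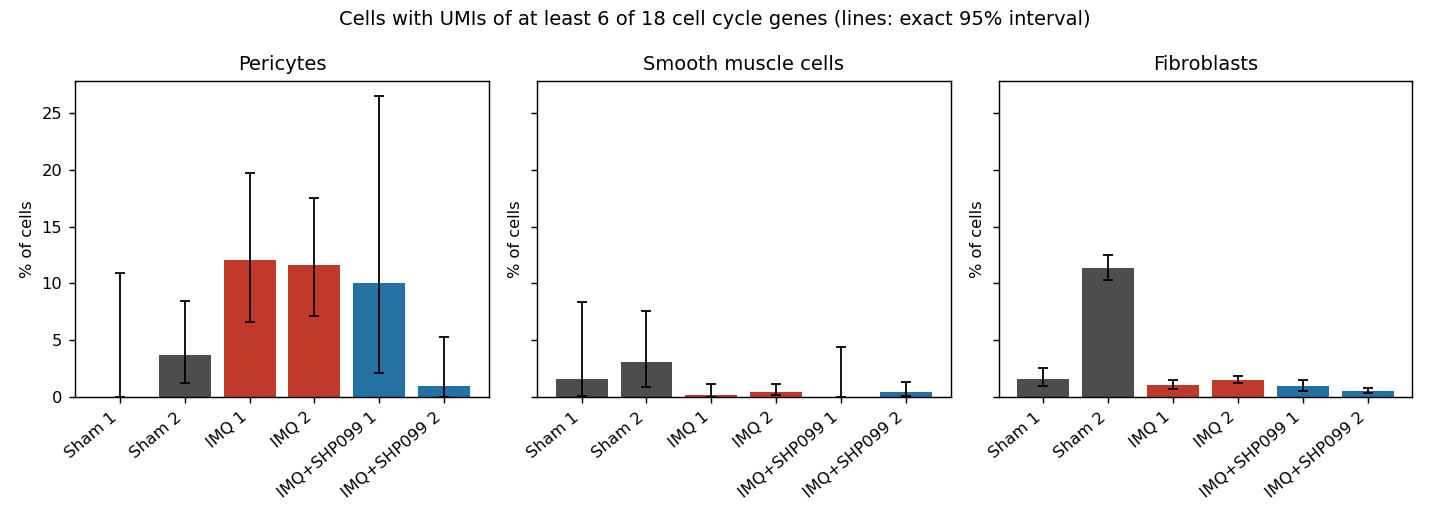
Percent of cells with UMIs of at least 6 of 18 cell cycle genes (vertical axis) in each library for pericytes, smooth muscle cells and fibroblasts, with exact 95% intervals. The IMQ pericytes reach 12.04% and 11.6%, and the IMQ smooth muscle cells 0.207% and 0.446%.

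The difference between responses was tested in a fit with both classes and the library as a block. Against smooth muscle cells 23 of 10026 genes responded differently to the cream (0.229%), 21 with the pericyte response higher (0.209%) and 2 lower (0.0199%). The cell cycle list gave 6 of 19 higher and none lower, with a median difference of 3.35 on the log2 scale against 0.01 over all genes. Stmn1 differed by 4.61 ± 0.32 (SE, edgeR adjusted p = 8.7e-05), Top2a by 6.84 ± 0.53 (adjusted p = 0.00016) and Cdk1 by 8.40 ± 0.70 (adjusted p = 0.00055). Pbk, a mitotic kinase, had no UMI in Sham pericytes and 18 and 57 in IMQ pericytes, against 0 and 51 in Sham and 1 and 15 in IMQ smooth muscle cells (adjusted p = 0.0059). Part of the Cdk1 difference lies in the smooth muscle cells, where it went from 22.1 to 0.66 and 1.32 unscaled CPM between Sham replicate 2 and the IMQ libraries. Also higher were Ccnd1, the cyclin of early cycle entry (difference 4.83 ± 0.57, adjusted p = 0.0046), Plat, the tissue plasminogen activator (4.05 ± 0.63), and Cd248, the pericyte sialomucin endosialin (1.98 ± 0.31). Emb and Angptl4, a lipase inhibitor, were the 2 genes with the lower pericyte response: Angptl4 was at 133 and 377 unscaled CPM in Sham pericytes and 114 and 60.7 in IMQ pericytes, against 44.4 and 66.4, then 93.4 and 38.3, in smooth muscle cells (difference -1.78 ± 0.31, adjusted p = 0.042). Without Sham replicate 1 the fit called 210 genes, without IMQ replicate 1 it called 15 and without IMQ replicate 2 it called 11; the cell cycle count ran from 1 (without Sham replicate 2) to 10.

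Against fibroblasts 262 of 12802 genes responded differently (2.05%), 175 higher (1.37%) and 87 lower (0.68%). Of the cell cycle list 13 of 20 were higher and none lower, with a median of 4.32 against 0.04 over all genes. Fibroblasts of Sham replicate 2 held 42.6 unscaled CPM of Cdk1 and those of IMQ 6.93 and 4.88, so here too the other class was lower. Epas1, the hypoxia factor HIF-2α, was at 976 and 856 unscaled CPM in Sham pericytes and 687 and 671 in IMQ pericytes, while in fibroblasts it went from 3.67 and 8.68 to 150 and 78.4 (difference -4.49 ± 0.55, adjusted p = 0.00079). Il13ra2, the decoy receptor of IL-13, was at 0 and 11.9 unscaled CPM in Sham pericytes and 1.47 and 0 in IMQ, and reached 16.1 and 6.37 in IMQ fibroblasts from 0 and 0.126. Among pericyte genes Notch3 (1.80 ± 0.41), its target Heyl (2.45 ± 0.50), Cox4i2 (2.98 ± 0.61) and Art3 (1.51 ± 0.34) had the higher pericyte response, with adjusted p between 0.0210 and 0.0389. Such a response is a difference from fibroblasts, whose levels of these genes are not given here. Notch3 was not higher in IMQ pericytes, where both libraries lay below both Sham libraries. Without Sham replicate 1 the fit called 962 genes and without Sham replicate 2 150, and the cell cycle count ran from 2 (without Sham replicate 2) to 18.

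No pericyte identity gene passed an adjusted p under 0.05 in the sum of all pericytes. Of 22 members tested (2 of 24, Foxf2 and P2ry14, were too low), 4 were higher and 1 lower at an unadjusted p under 0.05 (6.42% and 7.71% of all genes), and the median log2 fold change was 0.11. Pdgfrb stood at 418 and 847 CPM in Sham, 513 and 467 in IMQ and 565 and 406 under IMQ+SHP099, and Notch3 at 1077 and 1164, 904 and 993, and 863 and 1090. Pdgfrb overlapped between all 3 groups, and both Sham libraries lay above both IMQ libraries for Notch3. Their log2 fold changes were -0.39 ± 0.41 and -0.24 ± 0.36 (edgeR adjusted p = 0.695 and 0.80). Higd1b was at 99.2 and 193 CPM in Sham, 631 and 355 in IMQ and 310 and 275 under IMQ+SHP099 (log2 fold change 1.68 ± 0.43, edgeR adjusted p = 0.154), and rose in the Myh11-low cells (1.60, adjusted p = 0.044). Every IMQ and IMQ+SHP099 library lay above both Sham libraries. Heyl, Cox4i2 and the connexin Gja4 were the other higher members (0.96, 1.26 and 1.07). Sparcl1 fell in the Myh11-low cells (-1.45, adjusted p = 0.029). Kcnj8 spread from 55.1 to 224 CPM within IMQ alone.

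Of the contractile genes Actg2 alone passed in the Myh11-low cells. Of 20 members, 2 were higher and 2 lower, with a median log2 fold change of 0.28. Actg2, the enteric smooth muscle actin, stood at 49.6 and 29.2 CPM in Sham, 180 and 405 in IMQ and 85.1 and 88.3 under IMQ+SHP099. Its log2 fold change was 3.07 ± 0.50 (edgeR adjusted p = 0.0601) and 2.89 in the Myh11-low cells, where it rose (adjusted p = 0.010). IMQ lay above both other groups. Cnn1, calponin, was also higher (1.60 ± 0.56), and Pln, the calcium pump inhibitor phospholamban, lower (-1.63 ± 0.59), as was the calcium channel Cacna1c (-0.78 ± 0.30). Mylk, the myosin light chain kinase, was at 2040 and 1566 CPM in Sham and 1487 and 1729 in IMQ. The vasoactive receptors gave 1 higher (Tbxa2r, the thromboxane receptor, 1.13 ± 0.44) and none lower of 15 tested, and the endothelin receptor Ednra stood at 205 and 251 CPM in Sham and 241 and 166 in IMQ.

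Matrix genes of the pericytes stood higher under the cream. Of 24 interstitial matrix genes 22 had a log2 fold change above 0 (49% of all genes), 5 were higher at an unadjusted p under 0.05 and none lower, with a median of 0.82; of 20 basement membrane genes 4 were higher and none lower, with a median of 0.53. Timp1, an inhibitor of matrix metalloproteinases (chromosome X, 20870166 to 20874735), was at 42.5 and 26.4 CPM in Sham, 395 and 208 in IMQ and 273 and 165 under IMQ+SHP099. Its log2 fold change was 3.29 ± 0.50 (edgeR adjusted p = 0.0576), and it rose by 3.74 in the Myh11-low cells (adjusted p = 0.00047). All 4 libraries with the cream lay above both Sham libraries. Col4a1, the main collagen of basement membranes, stood at 524 and 928 CPM in Sham, 2194 and 1557 in IMQ and 1391 and 1288 under IMQ+SHP099 (log2 fold change 1.35 ± 0.42, rising by 1.32 in the Myh11-low cells with adjusted p = 0.046). Col12a1, a collagen of fibril surfaces, was at 77.9 and 52.8, then 227 and 213, then 152 and 222 CPM, and Tnc, tenascin C, at 42.5 and 51.8, then 121 and 154, then 72.9 and 122. Both rose in the Myh11-low cells (2.86, adjusted p = 0.0012, and 1.91, adjusted p = 0.035), as did Itga6, the laminin receptor subunit (2.83), Col15a1 (1.92) and Col6a3 (1.69), while Eln, elastin, fell (-1.78). In all, 4 of 22 interstitial members rose there and 1 fell, which became 3 and 4 without Sham replicate 1, 1 and 0 without Sham replicate 2, 2 and 0 without IMQ replicate 1, and 2 and 1 without IMQ replicate 2. The median of the list was 0.68 there and 0.06 without Sham replicate 1. Of 19 basement membrane members 3 rose, and 2 and 1 did without Sham replicates 1 and 2, and 0 without either IMQ library. Fibroblasts held more Timp1 than pericytes in every library (129 and 94.2 unscaled CPM in Sham, 955 and 698 in IMQ). Timp1 UMIs were found in 68 of 108 and 85 of 164 IMQ pericytes. The interstitial list also holds the fibroblast markers Col1a1, Dcn, Lum and Lox. The 8 fibroblast markers summed to 232 and 2271 unscaled CPM in Sham pericytes and 1583 and 3293 in IMQ pericytes. The part of fibroblast RNA in the interstitial list was not tested.

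Ctgf, a matricellular target of YAP and TGF-beta (chromosome 10, 24595442 to 24598683), stood out among the growth factor signals. It was at 35.4 and 12.3 CPM in Sham, 203 and 429 in IMQ and 200 and 381 under IMQ+SHP099, with all 4 libraries of cream-treated skin above both Sham libraries. The log2 fold change was 4.18 ± 0.64 (edgeR adjusted p = 0.0576), and 3.22 in the Myh11-low cells (adjusted p = 0.0033). Pdgfa and Tgfb3 were higher as well (0.96 ± 0.35 and 1.29 ± 0.36), and Ltbp1, which stores latent TGF-beta, was lower (-1.16 ± 0.44) and fell in the Myh11-low cells (-1.82, adjusted p = 0.023). Pdgfra, a fibroblast receptor, was at 110 CPM in IMQ replicate 2 and 13.6 in replicate 1. In all, 4 of 21 members were higher and 1 lower, with a median of 0.03. Vessel growth signals had 1 of 15 higher, Flt1, the decoy receptor of VEGF (1.36 ± 0.57), and 1 lower, Vegfa itself (-1.28 ± 0.42), which stood at 14.2 and 47.1 CPM in Sham and 16.7 and 15.9 in IMQ.

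Pericytes held Cxcl1 and Il6 at or above the level of the whole tissue in all groups. Cxcl1, a neutrophil attractant, stood at 458 and 972 unscaled CPM in Sham pericytes, 1633 and 861 in IMQ and 1802 and 326 under IMQ+SHP099, which was 111% to 1886% of the level over all cells of the same library. Il6 was at 120 and 1181, 478 and 294, and 306 and 166 unscaled CPM (100% to 1803%). Smooth muscle cells expressed both genes too: in thinned Sham replicate 1, Cxcl1 was found in 25.8% of pericytes and 24.2% of smooth muscle cells, and Il6 in 12.9% and 8.06%. Fibroblasts of IMQ+SHP099 replicate 2 held more than its pericytes, at 409 unscaled CPM of Cxcl1 and 271 of Il6. In every other library the pericytes held more than the fibroblasts, in unscaled CPM. On this scale the groups overlapped for both genes, and the log2 fold changes of IMQ against Sham were 0.92 ± 0.67 and -0.60 ± 0.69. Ccl2, the monocyte attractant, had 0 and 193 CPM in Sham, 434 and 539 in IMQ and 255 and 344 under IMQ+SHP099 (2.06 ± 0.77, edgeR adjusted p = 0.274), and rose in the Myh11-low cells (2.53, adjusted p = 0.037), though in IMQ replicate 2 a single cell gave 39.2% of its UMIs. Cxcl10 and the adhesion molecule Icam1 fell there (-1.78 and -1.77, both adjusted p = 0.039). Fibroblasts held more Ccl2 than pericytes in every library, with 1518 and 301 unscaled CPM in Sham and 542 and 697 in IMQ. The pericytes held 0 and 222, then 420 and 531, on that scale. Of 17 leukocyte recruitment genes Ccl2 alone was higher and none lower at an unadjusted p under 0.05.

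Among 27 cytokine receptors and NF-kB feedback genes 1 was higher and 3 lower, with a median of -0.31. Nfkbiz, the atypical inhibitor that IL-17 induces in keratinocytes (chromosome 16, 55811375 to 55838899), was at 390 and 393 CPM in Sham, 169 and 149 in IMQ and 97.2 and 103 under IMQ+SHP099. The 3 groups did not overlap. Its log2 fold change was -1.30 ± 0.32 (edgeR adjusted p = 0.141), and it fell by 2.44 in the Myh11-low cells (adjusted p = 0.0011). Il6ra and Stat3 were the other lower members (-1.10 ± 0.39 and -0.91 ± 0.33). Ifngr2, a chain of the interferon gamma receptor, was at 35.4 and 49.95 CPM in Sham and 185 and 115 in IMQ and rose in the Myh11-low cells (1.87, adjusted p = 0.015).

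Acute phase genes gave 7 of 11 tested members higher and none lower, with a median of 2.15. Lcn2, lipocalin 2, had no UMI in Sham pericytes, 142 and 311 in IMQ and 0 and 114 under IMQ+SHP099, so the IMQ level was at least 47.6-fold higher against a floor of 3 UMIs over the group. It rose in the Myh11-low cells (edgeR adjusted p = 0.00015). Its UMIs lay in 18 of 108 and 18 of 164 IMQ pericytes, and a single cell held 31.7% and 36.7% of them. Fibroblasts of the IMQ libraries held 2658 and 1009 unscaled CPM of Lcn2, against 104 and 152 in pericytes. Saa3 had none in Sham and 426 and 1078 UMIs in IMQ (at least 158-fold), of which a single cell held 64.6% in IMQ replicate 1 and 38.1% in replicate 2. For Saa3 the fibroblasts of the IMQ libraries held 20268 and 8520 unscaled CPM, against 313 and 528 in pericytes. Serpina3n was at 2729 and 1632 unscaled CPM in these fibroblasts, against 159 and 233 in pericytes. For Cp, ceruloplasmin, the fibroblasts held 503 and 370, against 292 and 168. How far fibroblast RNA made up the counts of Lcn2, Saa3, Serpina3n and Cp was not tested. Cp was spread over 63 of 108 and 74 of 164 IMQ pericytes. It stood at 14.2 and 70.7 CPM in Sham, 301 and 171 in IMQ and 188 and 178 under IMQ+SHP099. Cp rose in the Myh11-low cells (2.17, edgeR adjusted p = 0.012), as did Serpina3n (1.75, adjusted p = 0.047). These were the 3 of 7 members that rose there, a count of 5 without Sham replicate 1, 0 without Sham replicate 2, 3 without IMQ replicate 1 and 2 without IMQ replicate 2.

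S100a8 and S100a9, the calprotectin subunits of neutrophils and stressed keratinocytes, had 1 UMI each in Sham and 76 and 118, then 80 and 109, in IMQ pericytes. The ratio of pooled levels was 61.2 (95% counting interval 10.9 to 2429) for S100a8 and 59.6 (10.6 to 2366) for S100a9. At 55.8 and 57.8 unscaled CPM, S100a8 was at 0.69% and 1.09% of the level over all cells of the same library, and fibroblasts held 64.4 and 95.6. Whether this RNA came from the pericytes was not tested.

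Interferon-stimulated genes stood lower. Of 30 tested none was higher and 16 were lower at an unadjusted p under 0.05 (7.71% of all genes), 14 had both IMQ libraries below both Sham libraries (22.6% of all genes), and the median was -0.92. Stat2, a subunit of the interferon-activated transcription factor (chromosome 10, 128270559 to 128292849), was at 42.5 and 51.8 CPM in Sham, 12.1 and 15.9 in IMQ and 18.2 and 14.5 under IMQ+SHP099 (log2 fold change -1.79 ± 0.36, edgeR adjusted p = 0.118). Ifit1, which binds foreign RNA ends, stood at 63.8 and 87.6 CPM, then 5.31 and 22.3, then 24.3 and 12.8 (-2.44 ± 0.51), and Ifit3 at 35.4 and 51.8, then 3.79 and 18.9, then 0 and 4.82 (-1.96 ± 0.58). In these 3 genes both Sham libraries lay above the other 4. Iigp1, an immunity-related GTPase, was at 106 and 353, 63.7 and 46.2, and 60.8 and 22.5 CPM. In the Myh11-low cells 4 of 27 fell (Stat2, Irf1, Ifi47 and Iigp1) and none rose. That count was 8 without Sham replicate 1, 2 without IMQ replicate 1 and 0 without Sham replicate 2 or IMQ replicate 2. The list median in the Myh11-low cells was -1.10, and -0.26 without Sham replicate 2. Ifitm3, B2m and H2-D1, the more abundant members, had log2 fold changes of 0.16, -0.09 and 0.00.

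The promoters of Ifit1 and Ifit3 are shown because both genes were lower, and each holds 2 matches of the interferon response core (GAAA, 2 bases of any kind and GAAA again, or TTTC spaced likewise on the other strand, in capitals). They are the 250 bases before the start site on the plus strand, chr19:34640639-34640888 for Ifit1 and chr19:34583279-34583528 for Ifit3 (RefSeq, GRCm38.p6).
Ifit1: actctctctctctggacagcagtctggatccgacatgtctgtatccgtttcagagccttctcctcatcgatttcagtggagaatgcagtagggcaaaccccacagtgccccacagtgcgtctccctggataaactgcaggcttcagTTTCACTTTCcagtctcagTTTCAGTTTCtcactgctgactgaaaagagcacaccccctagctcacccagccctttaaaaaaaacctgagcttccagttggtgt
Ifit3: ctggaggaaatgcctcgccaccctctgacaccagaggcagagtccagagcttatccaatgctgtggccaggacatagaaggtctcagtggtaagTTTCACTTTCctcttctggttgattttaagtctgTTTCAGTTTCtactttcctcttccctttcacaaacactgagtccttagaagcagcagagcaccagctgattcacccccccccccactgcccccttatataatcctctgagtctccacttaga
The core occurred in 13 of the 28 promoters of the list that were found (46.4%) and in 2.98% of all promoters. Nothing about factor binding was measured.

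Immediate early genes, which also respond to tissue dissociation, were lower too. Of 24 members none was higher and 11 were lower, with a median of -0.88, and in the Myh11-low cells 13 fell and none rose. Egr1 stood at 1962 and 2302 CPM in Sham, 1303 and 984 in IMQ and 966 and 947 under IMQ+SHP099. Fosl2 was at 368 and 321, then 147 and 147, then 134 and 231 CPM, and fell by 1.90 in the Myh11-low cells (adjusted p = 0.0067). The count of 13 was 6 without Sham replicate 1, where the heat shock gene Hspb1 rose, 4 without Sham replicate 2 (Hspb1 among them), 12 without IMQ replicate 1 and 0 without IMQ replicate 2. Glycolysis and hypoxia genes had 1 of 21 higher (Ldha, 0.92 ± 0.39) and 1 lower (Pfkfb3, -1.05 ± 0.42).

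Ptpn11, which encodes SHP2, the target of the inhibitor, was at 14.2 and 58.4 CPM in Sham, 66.7 and 82.4 in IMQ and 42.5 and 78.7 under IMQ+SHP099. Both IMQ libraries lay above both Sham libraries, and IMQ+SHP099 overlapped with each group. The value of Sham replicate 1 rests on 2 UMIs and that of IMQ+SHP099 replicate 1 on 7. For IMQ against Sham the log2 fold change was 0.67 ± 0.43 (edgeR adjusted p = 0.493). Of 17 genes of SHP2 and ERK feedback none was higher and 3 were lower (Spry4, Spred2 and Dusp5, brakes on the pathway, from -0.79 to -1.69).

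Outside the lists, the genes of smallest p that were lower in IMQ were Ntng1, Ppp1r3c, Pgm2l1, Enpep, AI838599 and Gm4951. Ntng1, a membrane-anchored netrin relative (chromosome 3, 109780040 to 110144011), stood at 49.6 and 54.7 CPM in Sham, 7.58 and 7.94 in IMQ and 6.08 and 12.8 under IMQ+SHP099 (log2 fold change -2.75 ± 0.39, edgeR adjusted p = 0.0576), and fell by 3.78 in the Myh11-low cells. Ppp1r3c, which targets a phosphatase to glycogen, was at 42.5 and 59.4, then 11.4 and 9.43, then 12.2 and 17.7 CPM, and Pgm2l1, a sugar phosphate enzyme, at 49.6 and 149, 28.1 and 19.4, and 36.5 and 25.7. Enpep, the aminopeptidase that processes angiotensin II and a pericyte surface protein, went from 42.5 and 60.3 to 16.7 and 12.9 and to 6.08 and 4.82 CPM. All 4 fell in the Myh11-low cells, and in all 4 both Sham libraries lay above the other 4.

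**Figure D4:**
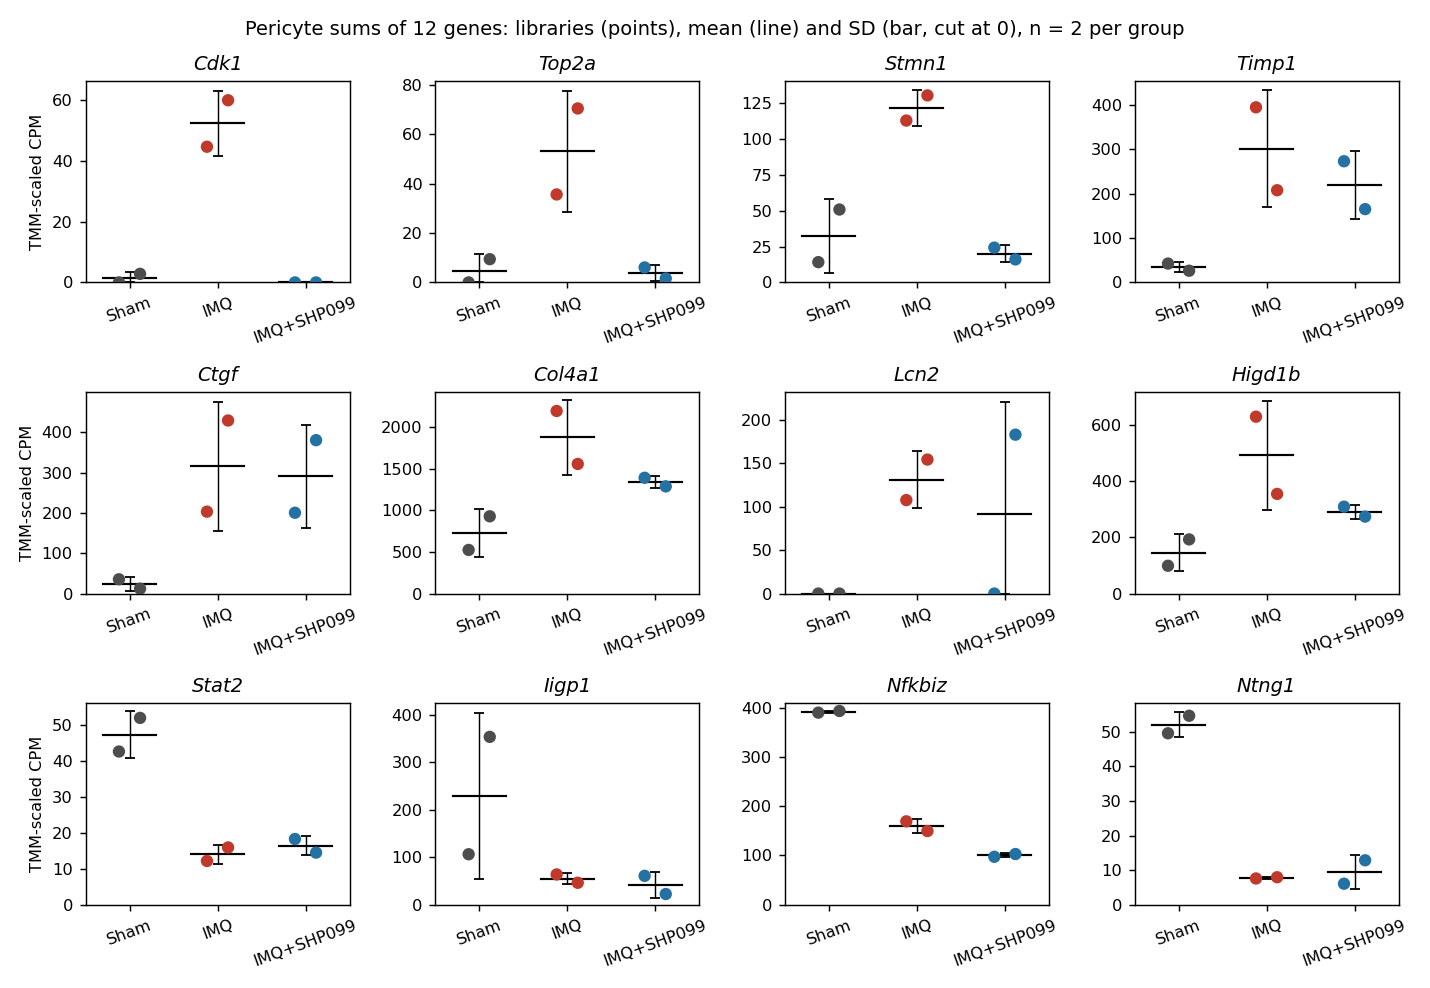
TMM-scaled CPM of 12 genes in the pericyte sum (vertical axes) for the 2 libraries of each group, with the mean and SD. Cdk1, Top2a and Stmn1 are high in IMQ alone, Timp1 and Ctgf are high in both groups with the cream, and Stat2, Nfkbiz and Ntng1 are high in Sham alone.

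Setting IMQ+SHP099 against IMQ addresses the inhibitor on top of the cream. No gene of 8581 passed in edgeR (0%, smallest adjusted p = 0.177); 379 had an unadjusted p under 0.05, 182 higher (2.12%) and 197 lower (2.3%), and DESeq2 called 1. In the Myh11-low cells none passed either (0%), with 345 at an unadjusted p under 0.05, and the SHP099 libraries held only 8 and 19 such cells.

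Cell cycle genes were lower with the inhibitor: 11 of 19 were lower and none higher at an unadjusted p under 0.05, 13 had both IMQ+SHP099 libraries below both IMQ libraries (18.8% of all genes), and the median was -1.85 against 0.01 over all genes. Cdk1 had no UMI in either IMQ+SHP099 library and 180 in IMQ, at least 15.0-fold lower against the floor of 3 UMIs over the group. Pclaf, Stmn1, Birc5 and Top2a had log2 fold changes of -3.35 ± 0.51, -2.73 ± 0.47, -3.91 ± 0.73 and -4.31 ± 0.83 (edgeR adjusted p from 0.177 to 0.485), and Cks2, a Cdk subunit, of -2.59 ± 0.59. In the thinned cells the median over the 4 members tested was -0.15. In IMQ+SHP099 replicate 1, 3 of 30 cells passed the count of cell cycle genes, with Mcm2 at 48.6 CPM (8 UMIs) and Mcm3 at 42.5 CPM (7 UMIs), against 26.5 and 20.4, then 46.3 and 33.3, in IMQ. This comparison and the one with Sham share the IMQ libraries, so that high IMQ values enter both.

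Of the genes that were higher, Cd74 and H2-Ab1, of antigen presentation, rested on a single cell: 419 of 420 Cd74 UMIs and 182 of 184 H2-Ab1 UMIs of IMQ+SHP099 replicate 1 lay in 1 of its 30 pericytes. Leukocyte marker RNA in that library was 2641 unscaled CPM, against 19.9 to 73.9 in the others. Grip2 (2.39 ± 0.51), Trp53i11 (1.85 ± 0.41), the potassium channel Kcna5 (2.06 ± 0.48) and Fam26e (1.55 ± 0.37) were the others, and Kcna5 stood at 10.6 and 10.4 CPM in IMQ and 18.2 and 56.2 under IMQ+SHP099. Of the immediate early genes Atf3, Klf2, Hspa1a and Hspa1b were higher (4 of 24, none lower). Of 22 pericyte identity genes none was higher and 2 lower, Art3 (-1.51 ± 0.40) and Kcnj8 (-1.88 ± 0.80). Matrix genes stood mostly below 0: 21 of 24 interstitial members (51.2% of all genes lay above 0), with a median of -0.52, of which 2 were lower and 1, fibronectin Fn1, higher. Interferon-stimulated genes had 0 higher and 0 lower of 30, with a median of -0.07. Ptpn11 differed by -0.18 ± 0.42, and none of the 17 SHP2 and ERK feedback genes had an unadjusted p under 0.05.

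**Figure D5:**
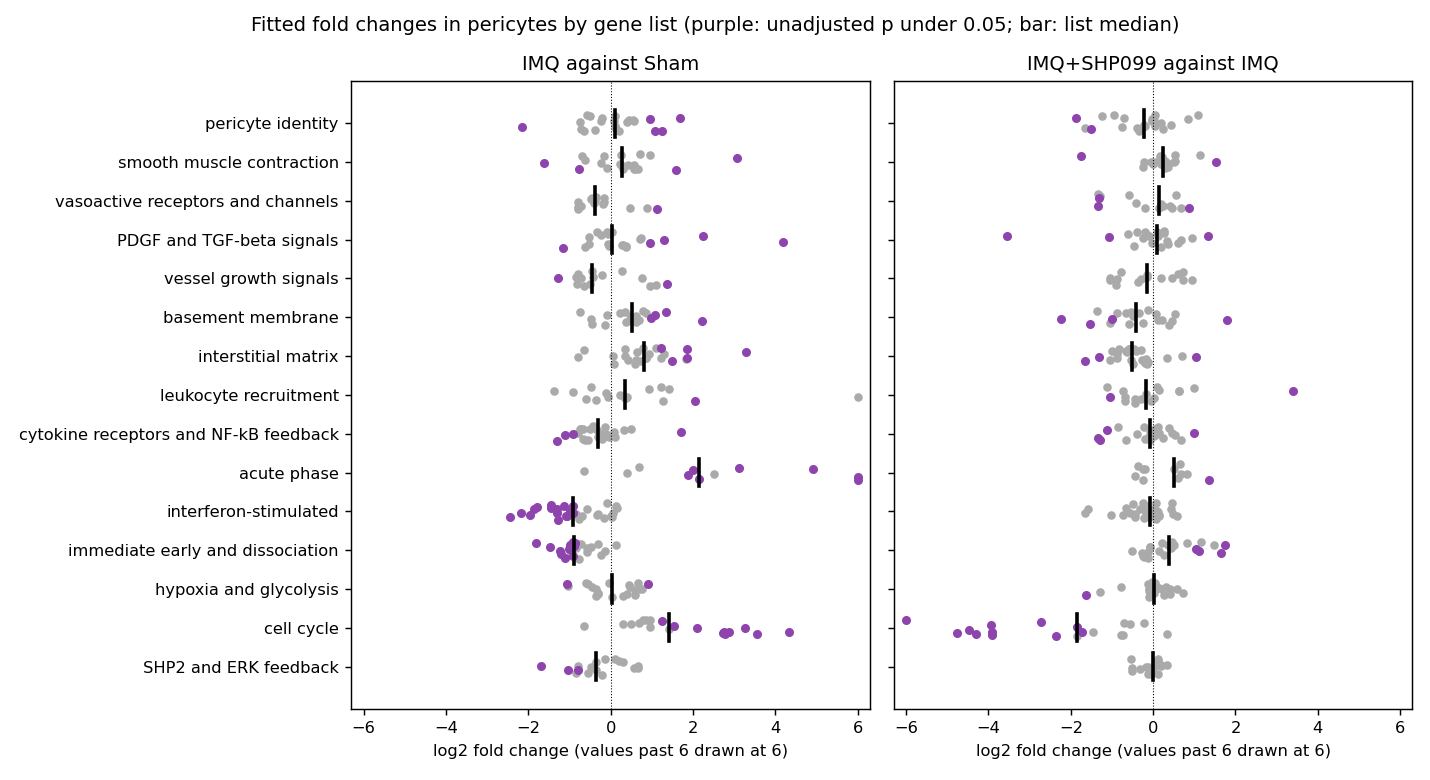
Fitted log2 fold changes in the pericyte sum (horizontal axes) for every tested member of 15 gene lists (rows), with the list median as a bar and purple points for an unadjusted p under 0.05. For IMQ against Sham the cell cycle median is 1.42, the acute phase median 2.15 and the interferon-stimulated median -0.92, and for IMQ+SHP099 against IMQ the cell cycle median is -1.85.

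The comparison of IMQ+SHP099 with Sham sets cream and inhibitor together against untreated skin. No gene of 8581 passed in edgeR (0%, smallest adjusted p = 0.0715); 947 had an unadjusted p under 0.05, 451 higher (5.26%) and 496 lower (5.78%), and DESeq2 called 16. In the Myh11-low cells 11 genes rose (0.204%) and 21 fell (0.389%); without Sham replicate 2 the number was 0, without Sham replicate 1 it was 75, and without the SHP099 replicates 1 and 2 it was 65 and 9. Timp1 (2.80 ± 0.51), Ctgf (4.09 ± 0.64) and Serpina3n (3.24 ± 0.67) were higher, and of the acute phase list 7 of 11 were higher and none lower. Timp1 and Serpina3n rose in the Myh11-low cells (adjusted p = 0.023 and 0.012). Of 30 interferon-stimulated genes 14 were lower and none higher, with a median of -1.25. Nfkbiz (-1.96 ± 0.34) and Enpep (-3.41 ± 0.57) were lower, with the collagen Col6a6, Lsmem1, Rnf122 and the histone methyltransferase Dot1l, and Nfkbiz fell in the Myh11-low cells (adjusted p = 0.038). Of the cell cycle list 2 of 19 were lower and none higher, with a median of -0.36. Both comparisons with Sham share the Sham libraries.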

How the data were processed

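Skin cells of 6 libraries were measured by droplet single-cell RNA sequencing, and each matrix as deposited by the authors holds raw counts, the UMIs of each gene in each cell barcode. The file headers name Cell Ranger 3.1.0, and the submitters' processing notes name GRCm38 and mm10. Barcodes with fewer than 100000 UMIs, fewer than 6500 genes and under 10% mitochondrial UMIs were kept, and no doublet caller was run. Pericytes were taken by the gate given at the start, and the members and lists were chosen with earlier results of these data known. UMIs were summed per library over all pericytes (150558 to 2042716) and tested with edgeR 4.0.16 in R 4.3.3 (TMM, filterByExpr, quasi-likelihood test, all 6 libraries, Benjamini-Hochberg adjustment). The same sums of pericytes and of fibroblasts or smooth muscle cells, with the library as a block, gave the difference of responses. Fibroblasts, smooth muscle cells and other classes were taken by gates of the same kind. Named genes averaged 20 CPM or more with the libraries of the groups apart, and as fewer than 5 passed an adjusted p under 0.05 in each comparison, the 6 of smallest p in each direction were named; members of the lists past the threshold, pericyte identity genes and Ptpn11 were added, and for differences of responses the 5 largest in each direction. Genes named elsewhere from a list were chosen after their values were seen. Values of some genes are not reported here. Shares carry exact Clopper-Pearson intervals, and group differences of shares an exact permutation test in scipy 1.17.1. The floor for a count of 0 was 3 UMIs. Alternatives were DESeq2 1.42.0, other gates, thinning to 2000 UMIs, a replicate block and leaving out each library. The fit was tested on simulated data. Of 31053 gene identifiers 31011 matched the gene annotation on GRCm38. Replicate numbers were not used to pair the libraries in the main fit. Deviations of same-numbered libraries correlated at 0.10, 0.03 and 0.20, a check that is weak where pericytes are few.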

Additional observations from a re-analysis of the deposited data

Results flagged for a closer look

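The response to the cream differed between pericytes and fibroblasts, by a test of the difference itself, in genes whose transcripts mark dividing cells and had no UMI in Sham pericytes. Hist1h1b, a linker histone of S phase, had 10 and 31 UMIs in IMQ pericytes (edgeR adjusted p of the difference = 0.00325), Pbk 18 and 57 (adjusted p = 0.00199), the mitotic kinesin Kif15 9 and 21 (adjusted p = 0.00747), the histone Hist1h3c 9 and 8 (adjusted p = 0.0194) and the kinetochore protein Nuf2 11 and 33 (adjusted p = 0.0152). In fibroblasts the same genes were highest in Sham replicate 2, Pbk with 706 UMIs there and 67 and 102 in IMQ. Without that library 150 genes passed against fibroblasts, and 2 of 20 cell cycle genes.

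In the other direction the fibroblast response was the higher one. This held for Il13ra2 (adjusted p = 0.000638), the unnamed transcript 2600014E21Rik (adjusted p = 0.0197), the crystallin Crybb3 (adjusted p = 0.0113), Epas1 (adjusted p = 0.000793) and Lrg1, a secreted glycoprotein of inflamed vessels (adjusted p = 0.0210). Crybb3 stood at 19.9 and 19.5 unscaled CPM in Sham pericytes and 6.61 and 2.94 in IMQ pericytes, and at 1.91 and 2.93, then 32.3 and 4.95, in fibroblasts. Lrg1 had 0 and 8 UMIs in Sham pericytes, 22 and 10 in IMQ pericytes, and 577 and 423 in IMQ fibroblasts.

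Against smooth muscle cells the pericyte response was higher for Pbk (adjusted p = 0.00590), the histone Hist1h2ap (adjusted p = 0.0335), Cdk1 (adjusted p = 0.00055), the mitotic ubiquitin conjugase Ube2c (adjusted p = 0.0107) and Pclaf (adjusted p = 0.00938), and lower for Emb (adjusted p = 0.0228) and Angptl4 (adjusted p = 0.0421). Ube2c had 0 and 6 UMIs in Sham pericytes and 22 and 173 in IMQ pericytes, against 0 and 62, then 12 and 14, in smooth muscle cells. Emb, embigin, stood at 219 and 82.4 unscaled CPM in Sham pericytes and 55.8 and 88.1 in IMQ pericytes, against 72.5 and 30.7, then 99.98 and 107, in smooth muscle cells, so that IMQ overlapped with Sham in pericytes.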

How the results depend on the processing

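Pericytes were few (30 and 32 in the smallest libraries) and the fit pools 2 libraries a group, so counts of genes moved with most settings. The pericyte share of cells turned in sign between IMQ and Sham among mural cells (-24.9 percentage points), and ran from -0.127 (without Sham replicate 1) to 1.13 points without each library. Between IMQ+SHP099 and IMQ it was 3.15 points among mural cells, and between IMQ+SHP099 and Sham it ran from -0.7577 to 0.498, with 0.395 without IMQ+SHP099 replicate 1.

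For IMQ against Sham, 0 genes passed as reported, and 322 with no filter on low counts, 2 with under 5% mitochondrial UMIs, 17 with a stricter gate, 56 in cells with little fibroblast RNA, 22 in thinned cells, 395 in Myh11-low cells, 8 with only the groups compared and 25 with DESeq2. Without each library in turn it was 1 to 45. For IMQ+SHP099 against IMQ, 0 became 95 with no filter and 1 with DESeq2, and 0 to 9 without each library. For IMQ+SHP099 against Sham, 0 became 242 with no filter, 1 with the stricter gate, 3 in cells with little fibroblast RNA, 20 in thinned cells, 32 in Myh11-low cells, 3 with only the groups compared and 16 with DESeq2, and 3 to 28 without each library. The difference of responses gave 566 genes against fibroblasts with no filter (150 to 962 without each library) and 250 against smooth muscle cells (11 to 210). The cause of these moves was not tested.

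The replicate block gave 76 genes for IMQ against Sham, 8 for IMQ+SHP099 against IMQ and 28 for IMQ+SHP099 against Sham. The check of pairing cannot decide whether same-numbered libraries share a batch, since the smallest held only 30 and 32 pericytes. Replicate 1 held more gated keratinocytes than replicate 2 in each group. These were 4006 against 923 in Sham, 1181 against 754 in IMQ and 5278 against 377 under IMQ+SHP099.

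Of single genes, Colec11 between IMQ+SHP099 and Sham ran from -3.10 to 1.17 on the log2 scale without each library. Ptpn11 between IMQ+SHP099 and IMQ was 0.0136 with the stricter gate and 0.17 in thinned cells, and ran from -0.84 to 0.0399 without each library, the latter without IMQ+SHP099 replicate 1. Between IMQ+SHP099 and Sham it ran from -0.16 to 2.23.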
